A study of Mus musculus with 6 samples.

Results

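The endothelin axis was followed here through 3 genes: *Edn1*, the gene of the ligand endothelin-1, *Ednrb*, the gene of the endothelin B receptor, and *Ece1*, the gene of endothelin-converting enzyme 1. They are 3 of the 24445 genes in the count table, and all 3 were among the 12023 genes with enough counts to be tested. The genes were chosen by name with earlier results of this same comparison known, so their own differences between genotypes are given below as a description, without a test.

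The libraries were made from bone marrow-derived macrophages (BMDMs) of female mice, and the study compared cells with and without ATP citrate lyase, which makes cytosolic acetyl-CoA. In the knockout (AclyM-KO, 3 libraries), Cre recombinase driven by the myeloid gene *Lyz2* deletes the floxed exon 9 of *Acly*. The control (Ctrl, 3 libraries, labelled AclyM-WT) came from *Acly* fl/fl littermates, so both groups carry the floxed allele and share the C57Bl/6J background. Cre is described only for the knockout, so its presence and the loss of *Acly* cannot be told apart here. Marrow cells of both groups were differentiated over 7 days with L929-conditioned medium and then treated with IL-4 at 100 U/mL for 24 h, and untreated cells were not analysed here. The ages of the mice are not given in the sources used here. The study describes its replicates in one place as biological and in another as technical replicates of pooled mice, so the p-values below measure the spread between libraries and perhaps not that between mice.

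Endothelin-1 is a short peptide best known as a product of vascular endothelium, where it constricts vessels, and macrophages are among the other cells that can make it. Its precursor is first cut by convertases of the furin family into big endothelin-1, and the membrane-bound zinc peptidase endothelin-converting enzyme 1 then releases the mature peptide. The peptide acts on the G protein-coupled receptors A and B, of which the B receptor also takes up endothelin and removes it from the surroundings.

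*Edn1* lies on the plus strand at chr13:42301476-42307990 (GRCm38, GENCODE M21), and its transcript has 5 exons and 2139 bases. The stretch of its coding sequence that encodes the 21 residues of mature endothelin-1 and the codons just after them lies in exon 2, at chr13:42303649-42303717, and is printed because this is the peptide that joins the 3 genes. The capitals mark the codons for tryptophan and valine, between which endothelin-converting enzymes cut.
Edn1 exon 2: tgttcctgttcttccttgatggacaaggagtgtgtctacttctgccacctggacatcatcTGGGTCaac

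*Ece1* lies on the plus strand at chr4:137862237-137965229, with 20 exons and 4816 bases. Its exon 17, at chr4:137957160-137957198, holds the 5 codons of the zinc-binding motif of the active site, HEXXH, in which X is any residue. They are in capitals in the stretch below, and the motif occurs 1 time in the 753 coding codons.
Ece1 exon 17: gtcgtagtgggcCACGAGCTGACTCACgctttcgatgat

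*Ednrb* lies on the minus strand at chr14:103814625-103844402, with 8 exons and 4107 bases in the transcript whose counts were used. This transcript begins with an additional noncoding exon, upstream of the start that the RefSeq promoter table lists at 103843701. No exon of another annotated gene overlaps those of *Ednrb* or *Ece1*, while 1.64% of the bases of *Edn1* lie under exons of *Gm47118* on the opposite strand.

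The sequences before the RefSeq start of each gene (GRCm38.p6, 250 bases, 5′ to 3′ on the strand of the gene) are shown because each of the 3 transcripts was separated between the groups. No binding was measured here. Capitals mark the letters of 2 motifs, searched on both strands: CCAAT, the CCAAT box, which reads as ATTGG on the other strand, and TGACGT, the core of the cAMP response element.
Edn1, chr13:42301226-42301475, plus strand: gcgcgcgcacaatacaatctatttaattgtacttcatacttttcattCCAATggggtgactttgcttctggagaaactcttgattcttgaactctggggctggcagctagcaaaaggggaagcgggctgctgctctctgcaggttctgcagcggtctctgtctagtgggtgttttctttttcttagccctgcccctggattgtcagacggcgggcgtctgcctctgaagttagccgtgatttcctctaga
Ednrb, chr14:103843702-103843951, minus strand: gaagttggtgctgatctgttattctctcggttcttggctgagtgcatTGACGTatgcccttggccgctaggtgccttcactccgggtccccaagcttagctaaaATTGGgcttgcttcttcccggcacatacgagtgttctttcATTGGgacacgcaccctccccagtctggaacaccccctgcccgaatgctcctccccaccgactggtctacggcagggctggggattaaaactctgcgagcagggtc
Ece1, chr4:137861987-137862236, plus strand: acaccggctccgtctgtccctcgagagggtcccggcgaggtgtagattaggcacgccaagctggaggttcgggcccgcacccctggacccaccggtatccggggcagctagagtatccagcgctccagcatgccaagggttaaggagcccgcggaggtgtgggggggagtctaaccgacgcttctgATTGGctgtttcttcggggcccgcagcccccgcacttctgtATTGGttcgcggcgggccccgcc

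CCAAT was found before all 3 starts, 1 time for *Edn1* and 2 times each for *Ednrb* and *Ece1*. It is a frequent motif, held by 37.4% of the 32851 promoter windows of 300 bases (250 before the start and 50 after it). TGACGT was found only for *Ednrb* among the 3 genes, beginning 203 bases before the start, and 7.51% of all windows hold it. The *Ednrb* window begins from the listed start, so in the transcript used here it falls within the first intron. For *Ece1* the table lists 4 starts, and the one of the counted transcript was taken.

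After the *Edn1* start, bases 14 to 43 hold the letters of a pair of motifs of kinds known to act in this promoter in endothelial cells: ACGTG, the hypoxia response core, here read on the minus strand and so printed as CACGT, and TGACTNA, the AP-1 site, in which N is any base.
Edn1, chr13:42301489-42301518, plus strand: tctggctgCACGTtgcctgtgggTGACTAA

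Of all promoter windows, 19.6% hold ACGTG and 13.9% hold TGACTNA on either strand. GATAA, a core recognised by GATA factors, was found 9 bases after the *Edn1* start on the minus strand and is held by 25.4% of windows. These matches describe letters in a window and show no binding.

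The libraries held 12151975 to 15587283 counts, and an absence of counts in a library allows a level of at most 0.193 to 0.245 counts-per-million units (CPM), the value of 3 counts, by counting error alone. Libraries of the same group had a chi-square of 2.31 to 7.46 per gene against each other, above the value near 1 of pure counting error, so none was a copy of another. The targeted gene *Acly* was at 332, 321 and 350 CPM in Ctrl and at 146, 134 and 136 CPM in AclyM-KO, with a log2 fold change of -1.27 (SE 0.0533, edgeR adjusted p = 5.22e-10). All 10 macrophage markers were above 1 CPM in every library. Their summed level was 19117 to 20090 CPM in Ctrl and 16459 to 16738 CPM in AclyM-KO. By edgeR's adjusted p 5 of the markers fell and 1, *Adgre1*, rose, where 12.6% of all genes tested fell and 12.4% rose. The list includes *Lyz2*, the gene that drives Cre, and the sum was not taken without it. The 2nd Ctrl library was at least 1.5 times both other Ctrl libraries in 1.54% of the genes tested, against 0.591% to 1.02% for each of the other 5 libraries, and it was the highest of the 6 libraries in 21.8% of genes, against at most 16.1% for each of the others. This touches *Edn1*, as described next.

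The ligand transcript was scarce and lower in AclyM-KO. *Edn1* was covered by 143, 265 and 168 counts in Ctrl, and by 140, 146 and 107 in AclyM-KO. Scaled to library size these were 9.66, 21.7 and 12.8 CPM in Ctrl against 9.55, 9.39 and 7.33 CPM in AclyM-KO. The groups did not overlap, but only just: the lowest Ctrl library exceeded the highest AclyM-KO library by 0.111 CPM, which is 1.57 counts in a library of mean size. The 2nd Ctrl library stood above all others, at 1.7 times the next Ctrl library.

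The means of *Edn1* were 14.7 ± 6.24 CPM in Ctrl and 8.76 ± 1.24 CPM in AclyM-KO (SD, n = 3 each), which gives a log2 fold change of -0.73 (SE 0.222) or 0.604 of the Ctrl level. Without the 2nd Ctrl library the log2 fold change was -0.35 or 0.784 of the Ctrl level. With each library left out in turn it ran from -0.97 to -0.35. In bulk RNA such as this, fewer cells that make a transcript and less of it per cell cannot be told apart.

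The receptor transcript showed the largest difference of the 3 genes. *Ednrb* was at 161, 153 and 155 CPM in Ctrl and at 403, 361 and 365 CPM in AclyM-KO, from 2386, 1866 and 2045 against 5903, 5613 and 5321 counts. The groups were far apart, with 361 CPM as the lowest AclyM-KO value and 161 CPM as the highest Ctrl value, and the Ctrl libraries lay close together. The means were 156 ± 4.4 CPM in Ctrl and 376 ± 23.1 CPM in AclyM-KO (SD, n = 3 each), which gives a log2 fold change of 1.27 (SE 0.0538) or 2.41-fold. By the size of the log2 fold change *Ednrb* ranked number 128 of the genes tested, *Edn1* number 551 and *Ece1* number 1641. Leaving out any 1 library kept the log2 fold change of *Ednrb* between 1.21 and 1.29.

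*Ednrb* has 3 rows of transcript counts, of which 2 are identical in every library. The row used, that of the transcript with the additional first exon, exceeded them by 21, 10 and 16 counts in Ctrl and by 18 counts in each AclyM-KO library. These were 0.88%, 0.536% and 0.782% of the row in Ctrl and 0.305%, 0.321% and 0.338% in AclyM-KO. The 3 rows thus carried nearly the same reads, and the difference between genotypes lay in the exons they share, while the excess itself stayed within 10 to 21 counts in both groups. The excess is a net difference of 2 totals and does not count reads of that exon alone.

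The converting enzyme transcript was moderately higher in AclyM-KO. Counts of *Ece1* were 701, 561 and 528 in Ctrl, against 881, 936 and 872 in AclyM-KO, or 47.4, 45.9 and 40.1 CPM against 60.1, 60.2 and 59.8 CPM. The AclyM-KO libraries were almost equal and lay at least 12.4 CPM above each Ctrl library. The means were 44.4 ± 3.85 CPM and 60.0 ± 0.241 CPM (SD, n = 3 each), which gives a log2 fold change of 0.43 (SE 0.0649) or 1.35-fold. Leaving out 1 library gave 0.36 to 0.48.

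**Figure D1:**
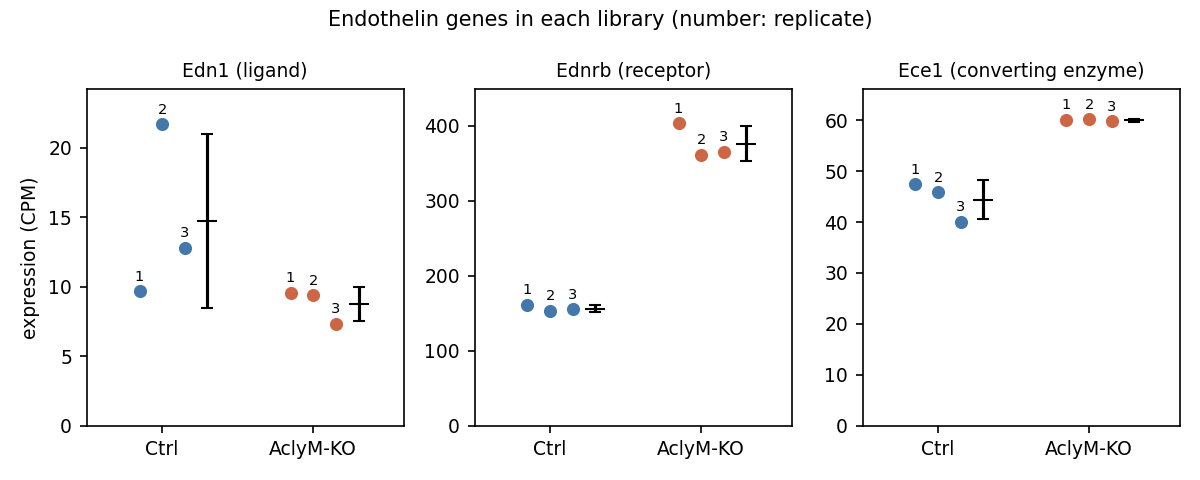
Level of *Edn1*, *Ednrb* and *Ece1* in CPM in each of the 3 Ctrl and 3 AclyM-KO libraries, with the replicate number above each point and the mean ± SD as a bar beside each group, each panel with its own axis from 0. *Ednrb* and *Ece1* are separated between the groups, whereas the lowest Ctrl value of *Edn1* (9.66 CPM) is beside the highest AclyM-KO value (9.55 CPM) and the 2nd Ctrl library is at 21.7 CPM.

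For all genes tested, a gene was called with an edgeR adjusted p under 0.05 if its log2 fold change was also past 0.58 up or down, and 358 of 12023 genes (2.98%) were called higher and 309 (2.57%) lower in AclyM-KO. *Edn1*, *Ednrb* and *Ece1* are given no call, since they were chosen from this comparison. By the adjusted p alone, 12.4% of the genes tested were higher and 12.6% (1511) lower, the latter count being 972 without the 2nd AclyM-KO library. In 20.5% of the genes tested every AclyM-KO library was above every Ctrl library, as for *Ednrb* and *Ece1*, and in 19.8% every one was below, as for *Edn1*. For the same reason nothing is read from the places of the 3 genes in these shares.

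Across 9 other ways of testing, scaling, filtering or summing rows, the log2 fold change was 1.25 to 1.27 for *Ednrb*, 0.41 to 0.44 for *Ece1* and -0.75 to -0.64 for *Edn1*. None of the 3 changed sign under any scaling tried. With TMM factors of 0.9903 to 1.008 scaling could move them little, so nothing is read from this.

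**Figure D2:**
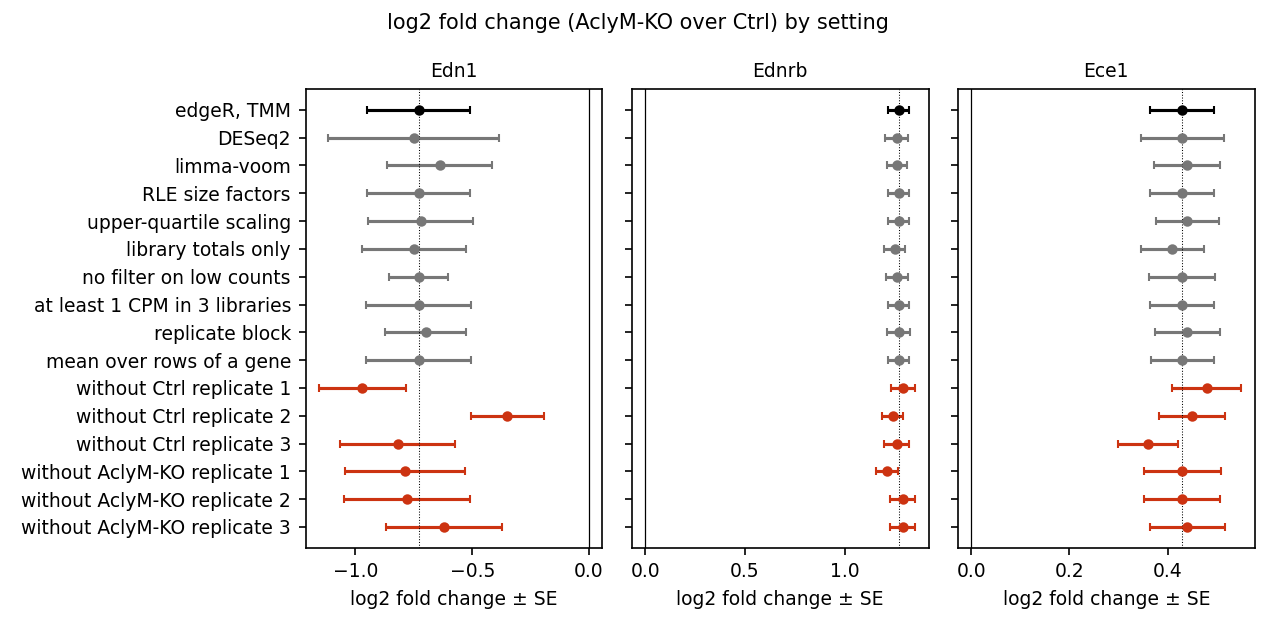
The log2 fold change of AclyM-KO over Ctrl ± SE for *Edn1*, *Ednrb* and *Ece1* under edgeR with TMM scaling (black), 9 other settings (grey) and each library left out in turn (red), with 0 as a solid line and the first value as a dotted line. *Edn1* moves from -0.97 to -0.35 when single libraries are removed, whereas *Ednrb* stays within 1.21 to 1.29 and *Ece1* within 0.36 to 0.48.

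Levels of different genes were compared per kilobase of transcript, as CPM divided by the transcript length in kilobases (RPKM). *Edn1* was at 4.52, 10.1 and 5.96 RPKM in Ctrl and 4.47, 4.39 and 3.43 RPKM in AclyM-KO, and ranked at percentile 37.6 among the 11766 genes tested that have a transcript length. *Ece1* was at 9.83, 9.53 and 8.32 RPKM in Ctrl and 12.5, 12.5 and 12.4 RPKM in AclyM-KO (percentile 55.3). *Ednrb* was at 39.3, 37.2 and 37.8 RPKM in Ctrl and 98.1, 87.9 and 88.8 RPKM in AclyM-KO (percentile 91.2). The receptor transcript was thus the most abundant of the 3 per length in each of the 6 libraries. *Ece1* exceeded *Edn1* in 5 of them, and in the 2nd Ctrl library the 2 were near each other, with a ratio of 0.94.

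Within a library, where depth cancels, *Ednrb* was 8.69, 3.67 and 6.34 times *Edn1* per length in the 3 Ctrl libraries and 22.0, 20.0 and 25.9 times in the AclyM-KO libraries. *Ednrb* to *Ece1* was 3.99, 3.9 and 4.54 in Ctrl and 7.86, 7.03 and 7.16 in AclyM-KO. *Ece1* to *Edn1* was 2.18, 0.94 and 1.4 in Ctrl and 2.79, 2.85 and 3.62 in AclyM-KO. None of the 3 ratios overlapped between the groups, and this restates the differences of the single genes.

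The remaining ligand, receptor and converting enzyme genes were absent or nearly so. *Edn2* and *Edn3*, the genes of the other two endothelins, and *Ednra*, the gene of the A receptor, had 0 counts in all 6 libraries, as had *Cma1*, the gene of mast cell chymase, which can also cut big endothelin. *Ece2*, a second converting enzyme that works in acidic compartments, reached only 3, 5 and 3 counts in Ctrl, and 8, 9 and 9 in AclyM-KO. These *Ece2* groups did not overlap, but the gene was too low to be tested. The transcripts of this axis in these BMDMs were therefore those of 1 ligand, 1 receptor and mainly 1 converting enzyme. Relatives were near absence too: of 6 other zinc peptidases of the family of *Ece1*, 0 were tested and 3 had no counts in any library, and of 6 other receptors of the subfamily of *Ednrb*, 0 were tested and 4 had none.

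Upstream of the converting enzyme, the precursor is cut by *Furin*, the widely expressed convertase of the secretory route, which was abundant. *Furin* was at 128, 134 and 134 RPKM in Ctrl and 123, 121 and 115 RPKM in AclyM-KO, and fell slightly (log2 fold change -0.15, SE 0.0449, edgeR adjusted p = 0.0265). *Pcsk7*, another convertase of this family, had a log2 fold change of 0.019 (edgeR adjusted p = 0.859). Of the enzymes that break endothelin down, *Mme*, the gene of neprilysin, had 0 counts in all 6 libraries. *Ctsa*, the gene of cathepsin A, a lysosomal carboxypeptidase able to inactivate endothelin-1, was at 773, 762 and 762 RPKM in Ctrl and 711, 709 and 722 RPKM in AclyM-KO, and was slightly lower (log2 fold change -0.10, SE 0.0328, edgeR adjusted p = 0.036).

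**Figure D3:**
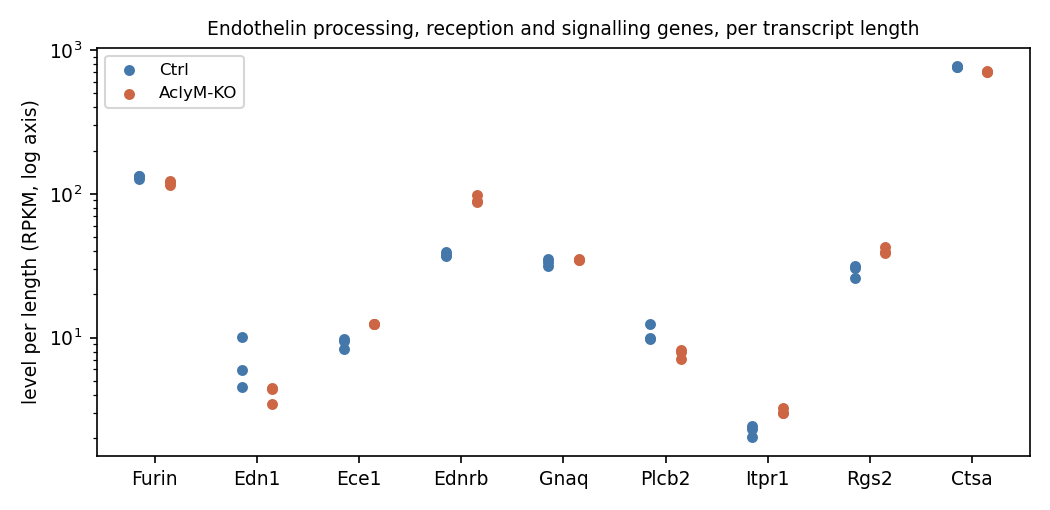
Level in RPKM on a log axis of genes that process endothelin-1, receive it, transmit the signal or break it down, with 1 point for each Ctrl and AclyM-KO library. *Ednrb* lies at 37.2 to 39.3 RPKM in Ctrl and 87.9 to 98.1 RPKM in AclyM-KO, while *Furin* and *Ctsa* are the most abundant in both groups and the groups overlap for *Gnaq*.

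The other genes of the pathway were taken from a list of 55 genes that leaves the 3 out. Of these 8 had no counts in any library and 39 were tested. By edgeR's adjusted p over all genes, 7 rose, 8 fell and 24 did not pass, where 12.4% of all genes tested rose and 12.6% fell. With the fold limit 3 were called higher and 1 lower, where 2.98% and 2.57% of all genes were. The same shares of all genes stand behind the counts by role that follow, and with so few genes in each role nothing is read from them. The median log2 fold change of the 39 was -0.014, against 0.001 over all genes tested, and 19 were above 0 and 20 below. The pathway as listed therefore had nearly even counts in both directions. The decreases of *Furin*, *Ctsa* and *Hif1a*, described in turn with their roles, were the least firm: without the 3rd Ctrl library or any 1 of the AclyM-KO libraries none of these 3 passed, and 5 genes fell instead of 8.

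Of the 7 G protein subunit genes tested, through which *Ednrb* signals, 0 passed with edgeR, also at an unadjusted p under 0.05, and 0 passed with DESeq2 or limma-voom. *Gnaq*, the subunit that couples the receptor to phospholipase C, was at 178, 197 and 189 CPM in Ctrl and 199, 196 and 196 CPM in AclyM-KO (log2 fold change 0.068, edgeR adjusted p = 0.358). *Gnai2*, an inhibitory subunit that the B receptor can also use, had a log2 fold change of -0.014 (edgeR adjusted p = 0.841).

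Among the phospholipases, IP3 receptors and protein kinases C that act next, 1 of 10 tested rose and 3 fell. *Itpr1*, the gene of an IP3-gated calcium channel of the endoplasmic reticulum, was at 20.1, 23.9 and 22.7 CPM in Ctrl and 29.6, 29.3 and 32.2 CPM in AclyM-KO (log2 fold change 0.46, SE 0.0837, edgeR adjusted p = 0.000979). *Plcb2*, a phospholipase C of blood cells, was at 44.3, 56.1 and 45.0 CPM in Ctrl and 36.8, 35.7 and 31.9 CPM in AclyM-KO (log2 fold change -0.47, SE 0.0884, edgeR adjusted p = 0.00111). Both pairs of groups were separate, as were 20.5% of all genes tested upward and 19.8% downward. As for *Edn1*, the 2nd Ctrl library was the highest of the 6 for *Plcb2*. The kinase gene *Prkcd* fell from 595 ± 9.42 to 453 ± 7.04 CPM (SD, n = 3 each, log2 fold change -0.39, edgeR adjusted p = 6.9e-06). *Prkcb* fell from 229 ± 22.9 to 185 ± 2.62 CPM (SD, n = 3 each, log2 fold change -0.31, edgeR adjusted p = 0.00203). For *Prkcb* too the 2nd Ctrl library was the highest of the 6, at 256 CPM, and without it the log2 fold change was -0.23.

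Of 9 genes tested for proteins that end the signal of such receptors (receptor kinases, arrestins and RGS proteins, which speed the switching off of G proteins), 2 rose and 1 fell. *Rgs2*, which acts mainly on the Gq class, was at 79.1, 91.5 and 95.2 CPM in Ctrl and 129, 120 and 116 CPM in AclyM-KO (log2 fold change 0.46, SE 0.0661, edgeR adjusted p = 0.000123). *Rgs16* was low, at 2.03, 2.94 and 2.73 CPM in Ctrl and 4.98, 3.73 and 4.73 CPM in AclyM-KO (log2 fold change 0.81, SE 0.213, edgeR adjusted p = 0.0114), and it did not pass without the 1st Ctrl library (0.65) or the 1st AclyM-KO library (0.73). *Grk3*, a kinase that marks active receptors for arrestin, was at 9.66, 9.08 and 10.5 CPM in Ctrl and 5.73, 6.88 and 5.62 CPM in AclyM-KO (log2 fold change -0.68, SE 0.139, edgeR adjusted p = 0.0022). In none of these 3 genes did the groups overlap, and 20.5% of all genes tested were separated upward and 19.8% downward. The 3 were named because they passed the test, so nothing more is read from this.

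Of 10 tested genes for transcription factors that are known to act on *Edn1* or *Ednrb* in other cells, 4 rose and 2 fell. *Epas1*, which encodes the hypoxia-inducible factor 2 alpha, was at 28.9, 29.0 and 29.5 CPM in Ctrl and 43.9, 49.2 and 50.8 CPM in AclyM-KO (log2 fold change 0.72, SE 0.0706, edgeR adjusted p = 2.98e-06). *Smad3*, which carries TGF-beta signals to *Edn1* in endothelium, was at 10.6, 10.7 and 10.9 CPM in Ctrl and 15.2, 17.2 and 18.1 CPM in AclyM-KO (log2 fold change 0.65, SE 0.105, edgeR adjusted p = 0.000341). Both were higher in every AclyM-KO library than in any Ctrl library, as were 20.5% of all genes tested. *Klf2*, a repressor of *Edn1* in endothelium (log2 fold change 0.41, edgeR adjusted p = 0.00194), and *Mitf*, the melanocyte regulator that is also made by macrophages (0.21, edgeR adjusted p = 0.00585), rose less. *Nfkb1*, an NF-kappaB subunit, fell by 0.19 on the log2 scale (edgeR adjusted p = 0.00792). *Hif1a*, whose product also binds the hypoxia response core, fell by 0.14 (edgeR adjusted p = 0.0498). The AP-1 genes *Fos* (-0.16, edgeR adjusted p = 0.565) and *Jun* (-0.12, edgeR adjusted p = 0.139) did not pass, and for *Fos* too the 2nd Ctrl library was the highest, at 18.3 CPM against 9.86 and 13.9 CPM in the other Ctrl libraries and 9.87 to 13.9 CPM in AclyM-KO. *Sox10*, an activator of *Ednrb* in neural crest cells, had 0 counts in all 6 libraries.

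**Figure D4:**
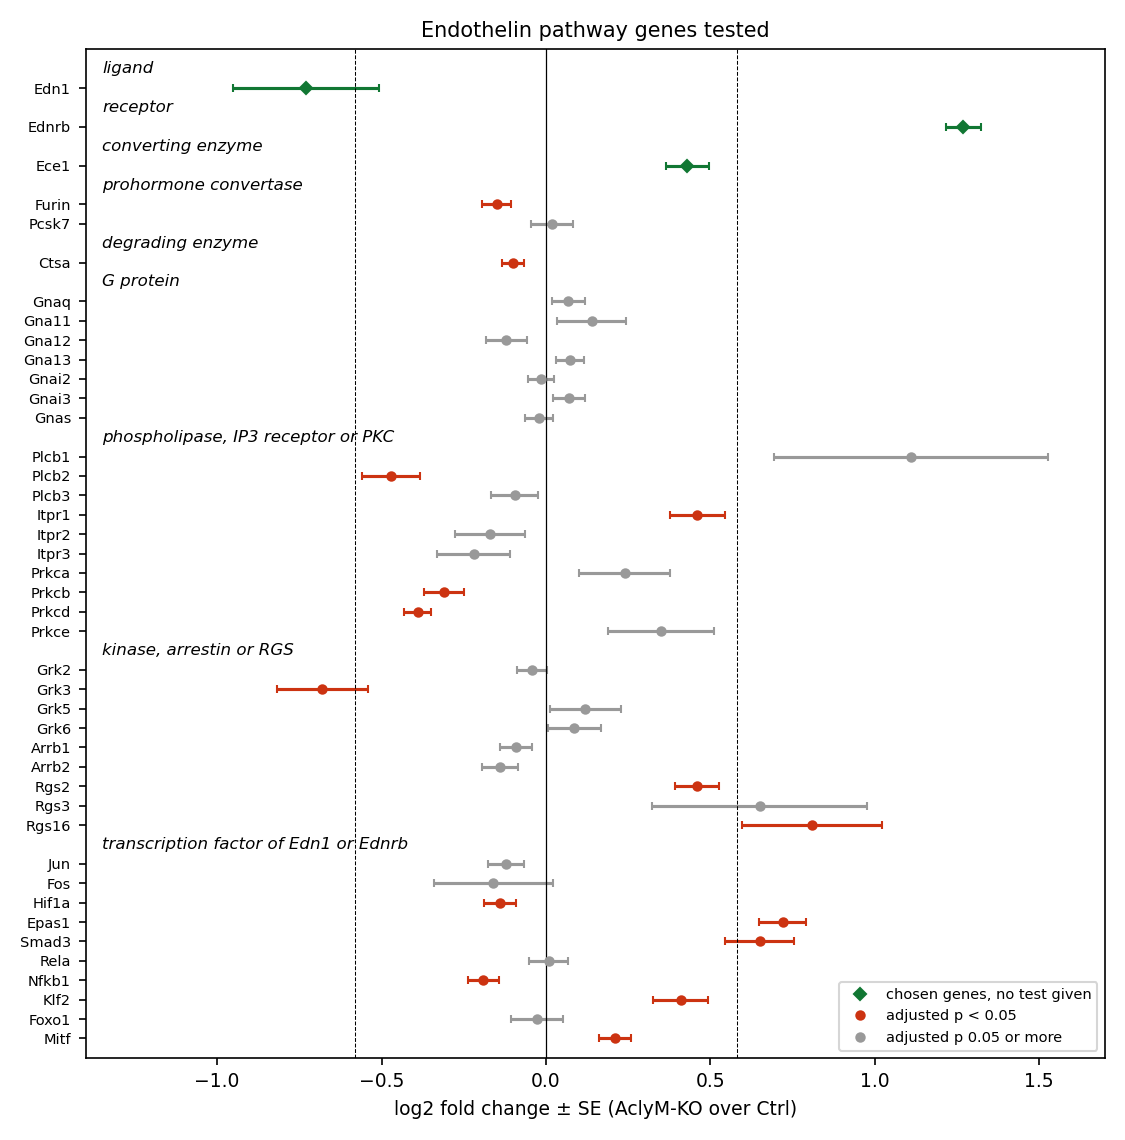
The log2 fold change of AclyM-KO over Ctrl ± SE for the 3 chosen genes (green diamonds, without a test) and the 39 other tested genes of the endothelin pathway list, ordered by role, with an edgeR adjusted p under 0.05 in red, other genes in grey and the limits of 0.58 as dashed lines. Beside *Ednrb*, only *Epas1*, *Smad3* and *Rgs16* in red lie beyond the upper limit, and beside *Edn1* only *Grk3* lies beyond the lower one.

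Other peptide systems that act on vessels were mostly silent in these cells. Of 41 genes for adrenomedullin, angiotensin, natriuretic peptides, kinins and others, 11 had no counts and 7 were tested. Of these 2 rose and 2 fell by edgeR's adjusted p (12.4% and 12.6% of all genes tested), and with the fold limit 1 was called higher and 2 lower (2.98% and 2.57% of all genes). *Vipr2*, a receptor for vasoactive intestinal peptide, was at 2.91, 3.11 and 2.28 CPM in Ctrl and 4.91, 5.28 and 4.45 CPM in AclyM-KO (log2 fold change 0.82, SE 0.193, edgeR adjusted p = 0.0058). *Vipr1*, the other receptor for this peptide, was at 6.62, 7.2 and 5.69 CPM in Ctrl and 3.48, 2.77 and 3.56 CPM in AclyM-KO (log2 fold change -0.99, SE 0.178, edgeR adjusted p = 0.000814). The 2 receptors of the same peptide thus moved in opposite directions. Each was without overlap, as were 20.5% of all genes tested upward and 19.8% downward. *Apln*, the gene of the ligand apelin, fell from 2.21 ± 0.158 to 1.09 ± 0.295 CPM (SD, n = 3 each, log2 fold change -1.01, edgeR adjusted p = 0.017). It was not called with DESeq2, nor without the 1st Ctrl or the 1st AclyM-KO library. *Cpd*, a carboxypeptidase that trims peptides, rose slightly (0.21, edgeR adjusted p = 0.01). *Calcrl*, a receptor gene listed with adrenomedullin and calcitonin gene-related peptide, was expressed at 50.3 ± 5.41 CPM in Ctrl and 55.0 ± 0.265 CPM in AclyM-KO (SD, n = 3 each). It did not pass (log2 fold change 0.13, edgeR adjusted p = 0.198).

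Since endothelin genes are typical of other cell types, their markers were examined. Of 10 endothelial markers, *Cldn5*, *Emcn* and *Robo4* had 0 counts in all 6 libraries, and the summed level was 866 to 975 CPM in Ctrl and 1362 to 1407 CPM in AclyM-KO. Nearly all of it came from *Vwf*, the gene of von Willebrand factor, which rose from 910 ± 54.9 to 1380 ± 22.8 CPM (SD, n = 3 each, log2 fold change 0.60, edgeR adjusted p = 1.96e-07). Without *Vwf* the other 9 markers summed to 4.86 to 5.4 CPM in Ctrl and 5.59 to 5.98 CPM in AclyM-KO. Of these 9 only *Kdr* had enough counts to be tested, and it did not pass. It was at 3.97 ± 0.113 CPM in Ctrl and 4.39 ± 0.275 CPM in AclyM-KO (SD, n = 3 each, log2 fold change 0.14, edgeR adjusted p = 0.591). The endothelial sum was higher in every AclyM-KO library than in any Ctrl library, with *Vwf* and, by a small margin at a low level, without it.

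Fibroblast and mural cell markers summed to 4.4 to 5.81 CPM in Ctrl and 4.23 to 6.78 CPM in AclyM-KO, with 1 of 10 (*Lum*) at 0 in all libraries. Melanocyte and Schwann cell markers summed to 1.62 to 3.35 CPM and 1.71 to 3.6 CPM, with 2 of 8 (*Sox10* and *Tyrp1*) at 0. Neither list separated the groups.

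Mast cell markers summed to 3.31 to 5.46 CPM in Ctrl and 7.81 to 9.01 CPM in AclyM-KO, with 4 of 8 at 0 in all libraries (*Tpsb2*, *Mcpt4*, *Ms4a2* and *Cma1*). Most of this was *Kit*, the stem cell factor receptor, which rose from 3.19 ± 0.829 to 7.61 ± 0.618 CPM (SD, n = 3 each, log2 fold change 1.26, edgeR adjusted p = 0.000165). Neutrophil markers summed to 30.6 to 31.8 CPM in Ctrl and 59.4 to 64.0 CPM in AclyM-KO, with 0 of 8 at 0 in all libraries. Of these 4 were too low to be tested. Of the 4 tested, 3 were called higher, where 2.98% of all genes tested were. They were *Mmp8* (log2 fold change 1.25), *S100a8* (0.85) and *S100a9* (0.59). The endothelial, mast cell and neutrophil sums were thus all separated between the groups in the same direction as *Ednrb* and *Ece1*. The endothelial separation was nearly all that of *Vwf*. The macrophage sum went the opposite way. Of its 10 markers 9 had a log2 fold change below 0, and the median of the 10 was -0.15. With the fold limit 3 were called lower, where 2.57% of all genes tested were. By edgeR's adjusted p 5 of the 10 fell, while *Adgre1* rose from 1573 ± 75.9 to 1978 ± 37.2 CPM (SD, n = 3 each, log2 fold change 0.33, edgeR adjusted p = 2.27e-05). The groups overlapped for *Mrc1* and *Cd68*. That list also holds *Lyz2*, the gene that drives Cre. The part of such cells in the differences of the endothelin genes was not tested.

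The genes most like each of the 3 were those with the highest Pearson r of log2 CPM over the 6 libraries among 10197 genes with a mean of at least 50 counts. This is a description, since the points share their libraries and fall into both genotypes. For *Edn1* they were *Cdk6*, a cell cycle kinase (r = 0.992), *Tank*, an adaptor of TRAF signalling (0.991), and *Nek6*, a mitotic kinase (0.989). The likeness followed the 2nd Ctrl library more than genotype. *Cdk6* was at 171, 221 and 188 CPM in Ctrl and 176, 168 and 159 CPM in AclyM-KO, and in all 3 of these genes the groups overlapped and the 2nd Ctrl library was the highest. Their edgeR adjusted p-values were 0.0614, 0.288 and 0.0952.

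For *Ednrb* they were *Dusp3*, a dual-specificity phosphatase (r = 0.998), *Fzd5*, a Wnt receptor (0.997), and *Eif5*, a translation initiation factor (0.996). *Fzd5* was at 11.5, 11.8 and 11.8 CPM in Ctrl and 19.6, 19.0 and 19.0 CPM in AclyM-KO, and *Eif5* was at 206, 189 and 206 CPM in Ctrl and 353, 343 and 336 CPM in AclyM-KO. For *Ece1* they were *Nop53*, a ribosome biogenesis factor (r = 0.995), *Trpm7*, a channel with a kinase domain (0.995), and *Gstm1*, a glutathione transferase (0.994). *Gstm1* was at 149, 150 and 135 CPM in Ctrl and 176, 180 and 174 CPM in AclyM-KO. Each of these 6 genes was separated between the groups like the gene it resembled, as were 20.5% of all genes tested. Choosing genes by likeness to a separated gene favours this, so nothing is read from it. Their log2 fold changes were smaller, at 0.40, 0.72 and 0.78 beside the 1.27 of *Ednrb*. Those beside the 0.43 of *Ece1* were 0.22, 0.22 and 0.29.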

How the data were processed

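RNA of 6 libraries of IL-4-treated BMDMs was measured. The authors prepared strand-specific mRNA libraries, and the submitters' processing notes name CASAVA 1.8.2, STAR 2.5.2b and the genome build mm10. The deposited values are raw read counts per RefSeq transcript, and the counting program and its use of strand are not given in the sources used here. Of 35745 rows, 35440 were paired with genes by NCBI's RefSeq table and 188 by GENCODE M21. The other 117 rows, with 0.37% to 1.38% of counts, entered neither library sizes nor tests. A read can count on several transcripts, so the row with the highest total was kept for each gene (6089 genes had several). This was a departure from the planned counts per gene, and the mean over rows was tried as an alternative.

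The test was that of edgeR 4.0.16 under R 4.3.3 (filterByExpr, TMM, glmQLFit and glmQLFTest, genotype as the only term, all 6 libraries) with Benjamini-Hochberg adjustment over 12023 genes. The authors used DESeq2, which was run as an alternative (1.42.0), as was limma-voom (limma 3.58.1). CPM used TMM-scaled library sizes (factors 0.9903 to 1.008), and RPKM divided CPM by the length of the matching GENCODE transcript. Sequences and motifs were read in Python 3.11.15 with pandas 2.3.3. The procedure was tested on simulated data.

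The 3 genes and all lists were chosen with earlier results of these data known. Besides them and *Acly*, the rule named every other ligand, receptor and converting enzyme gene of the pathway list, the 5 largest changes in each direction among its other genes with an edgeR adjusted p under 0.05, called genes of the other vasoactive list, and the 3 most alike genes by Pearson r of log2 CPM (prior count 2). *Furin*, *Pcsk7*, *Mme*, *Ctsa*, *Gnaq*, *Gnai2*, *Klf2*, *Mitf*, *Hif1a*, *Fos*, *Jun*, *Cpd*, *Calcrl* and the markers were named after their values were seen. Intervals of counts cover counting error only. Protein sequences were not used here.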

Additional observations from a re-analysis of the deposited data

How the results depend on the processing

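The numbers of genes called depended mainly on the fold limit. Without it 1485 genes were higher and 1511 lower in AclyM-KO, and with a limit of 1 on the log2 scale there were 145 and 80. Of the endothelin pathway genes beside the 3 chosen ones, 7 were higher and 8 lower without the limit, and 0 and 0 with the limit of 1 (by edgeR, and 7 and 8 also passed the adjusted p alone with DESeq2). Of the other vasoactive peptide genes 1 was called with the limit of 1. With 1 library left out, 315 to 374 genes were called higher and 271 to 317 lower, 2 to 4 pathway genes higher and 1 lower, and 2 to 3 vasoactive genes in all. Under the adjusted p alone, 6 to 8 pathway genes rose and 5 to 8 fell. Of 330 values of the 22 tested genes named by rule under other settings, 0 reversed, 5 lost the test (*Rgs16* and *Apln*) and 6 gained it (*Cdk6* and *Nek6*). *Hif1a* also failed with upper-quartile scaling, without a filter on low counts and with the mean over rows. The cause was not tested.

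No source says that replicate numbers mark pairs, and the deviations of libraries with the same number correlated with r of -0.0651, 0.0498 and -0.0314 over genes, so the numbers were not taken as pairs. With a replicate block 350 genes were called higher and 302 lower, 4 pathway genes higher and 1 lower and 3 vasoactive genes in all. The log2 fold change of *Ednrb* was 1.27, that of *Ece1* 0.44, that of *Edn1* -0.70 and that of *Acly* -1.27. Under the adjusted p alone, 8 pathway genes rose and 5 fell with the block, against 7 and 8 without it, and the 3 that no longer passed were *Furin*, *Ctsa* and *Hif1a*.

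Depth limits *Ece2*, which had at most 9 counts in a library and was not tested. The groups of *Edn1* are 1.57 counts apart at a mean library size (0.682 with upper-quartile scaling), while its Ctrl libraries range from 143 to 265 counts.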
